A study of Mus musculus with 6 samples.

Results

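Vitamin A reaches cells as retinol and acts mainly as retinoic acid, and 9 genes of this route were followed in mouse induced pluripotent stem cells with and without serum response factor (SRF). The 9 genes are Rbp4, Stra6, Crabp1, Crabp2, Aldh1a1, Aldh1a2, Dhrs3, Cyp26a1 and Rarb. They were chosen by name, as the retinoid transport and signalling genes, with earlier results of these data known. All 9 have a row among the 24421 gene entries of the table. Induced pluripotent stem cells are body cells reprogrammed to a state like that of embryonic stem cells. Per the labels, 3 libraries (SRF KO) came from cells with both Srf alleles deleted (SRFΔ/Δ) and 3 (WT) from cells with both alleles in the floxed, intact form (SRFf/f), and both kinds were kept in medium with serum. The labels name no Cre driver, clone, feeder layer or added retinoid, and they do not say whether replicates are separate cultures, so that p-values measure the spread between these libraries, which may be technical.

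Retinol travels in blood on retinol-binding protein and enters cells through membrane receptors. Inside the cell it is oxidised to retinal and then, by aldehyde dehydrogenases, to retinoic acid, which binds nuclear receptors that sit on DNA as dimers with retinoid X receptors. Enzymes of the Cyp26 family break retinoic acid down again. Retinoic acid is widely used to make pluripotent cells differentiate, and Cyp26a1, Rarb, Crabp2, Stra6 and Dhrs3 are known as genes that it can induce.

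Cyp26a1 showed the largest difference of the 9 genes, 13.8-fold higher in SRF KO. Stra6 and Aldh1a1 were also higher, by log2 fold changes of 1.23 and 1.59, and no member was called lower. The other 6 genes (Rbp4, Crabp1, Crabp2, Aldh1a2, Dhrs3 and Rarb) did not pass the test. Of the members named above as inducible by retinoic acid, Cyp26a1 and Stra6 were called higher, and Rarb, Crabp2 and Dhrs3 were not called. Calls are those of edgeR's quasi-likelihood test at a Benjamini-Hochberg adjusted p under 0.05 over all 15611 entries tested, and every adjusted p below comes from that fit. Of those entries 41.1% were called, 20.4% as higher and 20.7% as lower, so that 3 of 9 is a share near the background and is not by itself a result about these genes. The size of the Cyp26a1 difference was less common: 42 of the 15611 entries had a larger positive fold change. That rank is a description only, since the members were chosen with earlier results of these data known.

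The libraries held between 26321602 and 36680156 counts. For the deleted gene, Srf, 113, 84 and 131 counts were found with the deletion against 1326, 765 and 1066 in WT (log2 fold change -3.12, adjusted p 8.1e-09). All 13 pluripotency markers were detected in every library, and their summed level was between 6489 and 6605 CPM (the count per 1000000 counts of the scaled library size) in SRF KO and between 7808 and 8359 CPM in WT. Of these markers 7 were lower, 1 was higher and 5 were not called, beside 20.7% lower and 20.4% higher among all entries. The 4 most abundant, Dppa5a, Tdgf1, Esrrb and Pou5f1, had log2 fold changes of -0.42, -0.20, -0.49 and -0.08, of which that of Pou5f1 was not called. Of 15 extraembryonic endoderm markers, all 14 tested were higher in SRF KO, with a summed level of 2351 to 2514 CPM against 201 to 219 CPM, and the other, Afp, had at most 3 counts in any library. Of the 14, Hnf4a and Apoa1 lay under the low-count filter's level in all WT libraries and were tested only through SRF KO. Foxa2 lay under that level in WT replicates 2 and 3 (0.311 and 0.174 CPM) and also passed only through SRF KO. The count is thus partly set by the filter. All 10 fibroblast markers were higher, with 842 to 1004 CPM against 415 to 468 CPM. Neural, mesoderm and trophoblast markers moved both ways or down, with 1 higher and 1 lower of 6 tested, 2 higher and 1 lower of 7, and 0 higher and 3 lower of 6. Of the markers, the neural genes Neurog2 and Hes5, the mesoderm marker Mesp1 and the trophoblast markers Elf5 and Plac1 were among those not tested because of low counts. The part of such cells in the retinoid results was not tested, and in RNA from whole cultures a change in the number of cells of a type cannot be told apart from a change in RNA per cell.

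**Figure D1:**
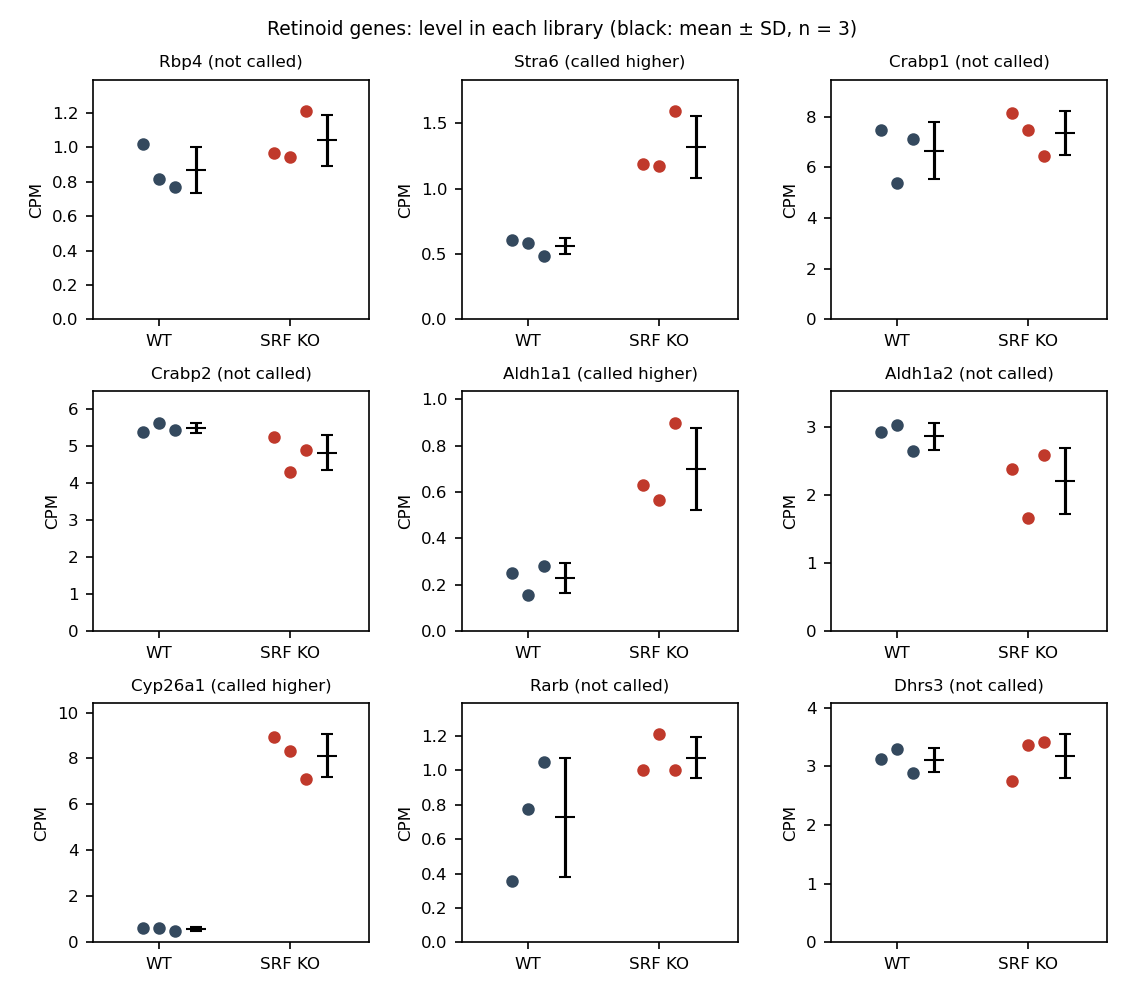
CPM of each retinoid gene (y axis, from 0) in the 3 WT and 3 SRF KO libraries, with the mean ± SD of each group in black. Cyp26a1, Stra6 and Aldh1a1 lie above WT in all 3 SRF KO libraries, while Rbp4, Crabp1, Rarb and Dhrs3 overlap.

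Transport and uptake came first. Rbp4 (GRCm38 chromosome 19, 38116629 to 38125281, minus strand) encodes the plasma carrier of retinol. Given in the order of replicates 1 to 3, as for all members, its counts were 26, 25 and 35 in SRF KO (0.966, 0.944 and 1.21 CPM) and 37, 21 and 22 counts in WT (1.02, 0.816 and 0.767 CPM). The groups overlapped, with WT replicate 1 above 2 of the 3 SRF KO libraries. The log2 fold change was 0.25 (95% interval -0.23 to 0.72, adjusted p 0.399).

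Stra6 (chromosome 9, 58063788 to 58153996, plus strand) encodes the membrane receptor that takes retinol from retinol-binding protein. Its counts were 32, 31 and 46 in SRF KO (1.19, 1.17 and 1.59 CPM) and 22, 15 and 14 in WT (0.607, 0.583 and 0.488 CPM). Every SRF KO library lay above every WT library. Among all entries tested, 25.3% had SRF KO wholly above WT. The log2 fold change was 1.23 (SE 0.23, 95% interval 0.73 to 1.73, adjusted p 0.00122), and it stayed between 1.06 and 1.31 in the alternatives run. The mean level was low, at 1.32 ± 0.237 CPM with Srf deleted against 0.560 ± 0.0631 CPM without the deletion (SD, n = 3).

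The cytosolic carriers of retinoic acid, Crabp1 and Crabp2, were the most abundant members in WT on a per-length scale. Crabp1 (chromosome 9, 54764748 to 54773110, plus strand) had 8.14, 7.48 and 6.43 CPM in SRF KO and 7.48, 5.36 and 7.11 CPM in WT. These ranges overlapped, and the log2 fold change was 0.13 (95% interval -0.16 to 0.42, adjusted p 0.472). Crabp2 (chromosome 3, 87948666 to 87953376, plus strand) had 5.24, 4.31 and 4.91 CPM in SRF KO and 5.38, 5.64 and 5.44 CPM in WT. All 3 SRF KO values lay below the WT values, as in 26.1% of entries tested, but by little, with a log2 fold change of -0.18 (95% interval -0.42 to 0.05, adjusted p 0.203). A difference as large as that of Stra6 lies outside both intervals.

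Among the enzymes that make retinoic acid, the 2 members differed. Aldh1a1 (chromosome 19, 20492715 to 20643465, plus strand) had 17, 15 and 26 counts in SRF KO (0.632, 0.567 and 0.899 CPM) and 9, 4 and 8 counts in WT (0.249, 0.155 and 0.279 CPM). The groups did not overlap, and the log2 fold change was 1.59 (SE 0.33, 95% interval 0.86 to 2.32, adjusted p 0.00267). Aldh1a1 passed the filter on low counts only through SRF KO, since none of the 3 WT libraries reached the filter's level of 0.364 CPM, so that it could be tested only because it was higher there. The call was also made with no such filter (1.59, adjusted p 0.00149). Aldh1a7, a close copy of Aldh1a1, had 2 to 7 counts per library and was not tested, and how reads that match both were counted is not given in the sources used here.

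Aldh1a2 (chromosome 9, 71215789 to 71296243, plus strand) encodes the main retinoic acid-making enzyme of the early embryo. It had 64, 44 and 75 counts in SRF KO (2.38, 1.66 and 2.59 CPM) and 106, 78 and 76 in WT (2.93, 3.03 and 2.65 CPM). The SRF KO values were all below WT, with SRF KO replicate 3 at 2.59 CPM and WT replicate 3 at 2.65 CPM nearly equal. The log2 fold change was -0.37 (95% interval -0.74 to 0.003, adjusted p 0.104) and did not pass the threshold. Dhrs3 (chromosome 4, 144892827 to 144928209, plus strand), which reduces retinal back to retinol, had 2.75, 3.36 and 3.42 CPM in SRF KO and 3.12, 3.30 and 2.89 CPM in WT. These ranges overlapped almost fully. Its log2 fold change was 0.04 (95% interval -0.26 to 0.33, adjusted p 0.860), and its sign turned on omitting either the SRF KO library 3 (-0.022) or the WT library 3 (-0.011).

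Cyp26a1 (chromosome 19, 37697798 to 37701536, plus strand) encodes a cytochrome P450 that clears retinoic acid. It had 240, 221 and 205 counts in SRF KO (8.92, 8.35 and 7.09 CPM) and 23, 16 and 14 counts in WT (0.635, 0.622 and 0.488 CPM). The lowest SRF KO library was thus far above the highest WT library. The group means were 8.12 ± 0.938 CPM against 0.582 ± 0.0814 CPM (SD, n = 3). The log2 fold change was 3.78 (SE 0.17, 95% interval 3.42 to 4.15, adjusted p 1.62e-08). In fold terms the interval runs from 10.7 to 17.8. The estimate stayed between 3.68 and 3.88 in the alternatives run. The extraembryonic endoderm markers given above moved with it: the most abundant of them, Col4a1, Lama1, Cubn and Dab2, changed by 3.36, 2.76, 5.88 and 3.68. The part of endoderm-like cells in the Cyp26a1 value was not tested.

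Rarb (chromosome 14, 16430839 to 16819156, minus strand) encodes a retinoic acid receptor. It had 27, 32 and 29 counts in SRF KO (1.003, 1.21 and 1.003 CPM) and 13, 20 and 30 counts in WT (0.359, 0.777 and 1.05 CPM). WT varied most here, since WT replicate 3 lay above 2 SRF KO libraries and WT replicate 1 far below all of them. The log2 fold change was 0.61 (95% interval -0.09 to 1.30, adjusted p 0.151). It was 0.99 (adjusted p 0.0288) without WT replicate 3 and 0.22 (adjusted p 0.543) without WT replicate 1. Rarb reached the low-count filter's level in 3 SRF KO and 2 WT libraries, so that WT alone would not have passed it. In GENCODE M21, 1793 of the 5265 exonic bases of Rarb also belong to Top2b on the opposite strand, whose mean level was 88.3 CPM with Srf deleted against 89.4 CPM in WT. Use of strand in counting is not given in the sources used here, so that reads of Top2b may be part of the Rarb values or may have been dropped.

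**Figure D2:**
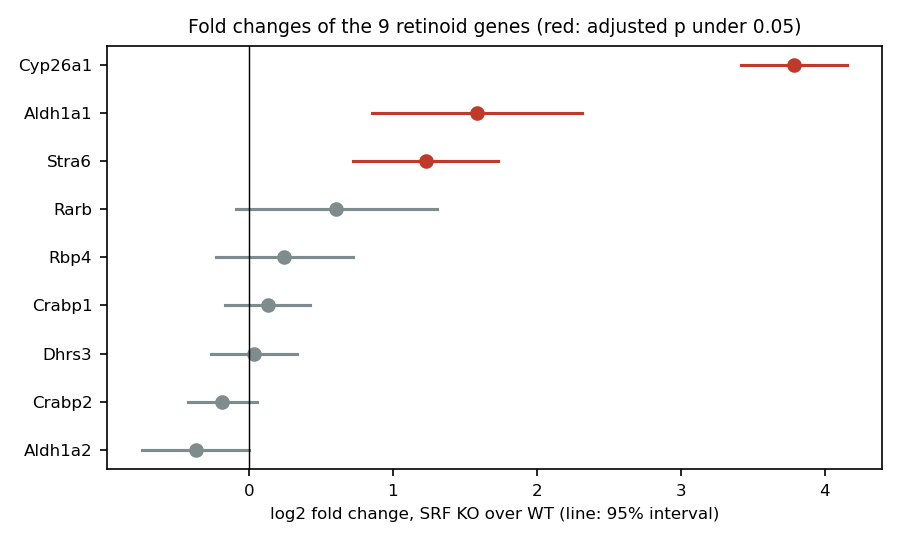
Log2 fold change of SRF KO over WT for the 9 retinoid genes (points) with 95% intervals (lines), red where the adjusted p is under 0.05. The interval of Cyp26a1, 3.42 to 4.15, lies above the intervals of all other members, and the 6 grey intervals include 0.

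Cyp26a1 and Rarb are shown side by side because both have a sequence match to a retinoic acid response element in front of a start site. Cyp26a1 was called and Rarb was not, and the part of the element in either value was not tested. The element searched was DR5, a direct repeat of the hexamer half-site of retinoic acid receptors (AGGTCA as well as GGGTCA, and likewise AGTTCA as well as GGTTCA) with 5 bases between both copies, on both strands of RefSeq windows (GRCm38.p6) from 250 bases before to 50 bases after each start. Of the 9 members, 8 (all but Crabp2, whose promoter was not searched) have such windows, 15 in all, and 2 of these windows held DR5. Over all genes it was rare, in 32 of 32851 windows (0.0974%). The elements are written as direct repeats, with the half-sites in capitals and the spacer in lower case, and agree at 15 of 17 bases.
Cyp26a1 element: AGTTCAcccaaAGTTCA
Rarb element: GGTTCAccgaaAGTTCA

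The Cyp26a1 element lies at chr19:37697776-37697792, 32 to 16 bases before the RefSeq start, with the repeat on the minus strand. The Rarb element lies at chr14:16575513-16575529, 53 to 37 bases before the start, on the strand of the gene and inside an exon of longer Rarb transcripts in GENCODE M21. The 240 bases before the GENCODE start of Cyp26a1, at chr19:37697558-37697797 on the plus strand, are printed to show the element in its promoter, and the capitals mark both half-sites as read on the plus strand.
Cyp26a1 promoter: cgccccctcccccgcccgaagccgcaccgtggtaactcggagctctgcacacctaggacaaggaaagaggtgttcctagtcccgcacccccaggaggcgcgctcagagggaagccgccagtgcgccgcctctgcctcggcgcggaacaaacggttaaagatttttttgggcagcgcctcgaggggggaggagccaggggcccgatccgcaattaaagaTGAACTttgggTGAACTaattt

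The same search with spacers of 2 or 1 bases matched no member window, against 0.268% and 0.222% of all windows. Single half-sites, which every DR5 also contains, occurred in 5 of the 15 member windows and in 43.7% of all windows. Of the 31 genes with a DR5 window, 7 were tested, and 3 of these were called higher and 1 lower, beside 20.4% and 20.7% of all entries. Without Cyp26a1 and Rarb, 2 were higher and 1 lower of 5 tested (median log2 difference 0.17), and nothing is read from so few genes. Apart from Cyp26a1, those called were Syndig1 (log2 fold change 0.80) and Ppbp (1.57), which were higher, and Blvrb (-0.42), which was lower. The WT mean of Ppbp, 0.301 CPM, lay under the low-count filter's level of 0.364 CPM, so that WT alone would not have passed it. A match in such a window is a description of the letters and not evidence of binding.

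On a per-length scale, CPM per kilobase of merged exons, Crabp1 had the highest level in both groups, at 8.30 ± 1.41 in WT and 9.16 ± 1.07 in SRF KO (SD, n = 3). In WT it was followed by Crabp2 (4.15), Aldh1a2 (1.27), Dhrs3 (1.06), Rbp4 (0.647), Cyp26a1 (0.293), Rarb (0.138), Stra6 (0.0960) and Aldh1a1 (0.0461). In that order the library ranges of neighbours overlapped only for Rarb with Stra6. In SRF KO Cyp26a1 held the second place at 4.09, ahead of Crabp2 (3.64), Dhrs3 (1.09), Aldh1a2 (0.977), Rbp4 (0.775), Stra6 (0.226), Rarb (0.204) and Aldh1a1 (0.142). There the ranges of Cyp26a1 and Crabp2 overlapped, as did those of Dhrs3 with Aldh1a2, Aldh1a2 with Rbp4 and Stra6 with Rarb. Exon lengths are those of the annotation rather than of the transcripts made in these cells, and with coding length Cyp26a1 ranked 3 in SRF KO and 7 in WT.

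**Figure D3:**
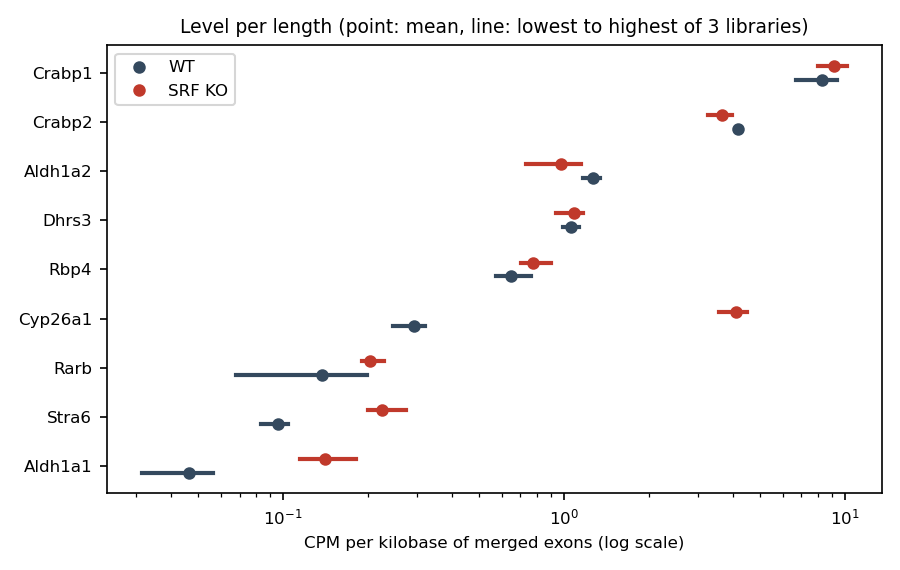
CPM per kilobase of merged exons (log axis) of the 9 retinoid genes, ordered by the WT mean, with points at group means and lines from the lowest to the highest of 3 libraries. Cyp26a1 moves from 0.293 in WT to 4.09 in SRF KO, beside Crabp2 at 3.64.

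The enzymes that degrade and make retinoic acid were then summed by family on the same per-length scale, a comparison chosen after the values were seen. The Cyp26 sum (Cyp26a1, Cyp26b1 and Cyp26c1) was between 0.515 and 0.613 in WT and between 3.92 and 4.99 in SRF KO. Cyp26a1 made up 47.8% to 53.4% of it in WT and 90.2% to 92.7% in SRF KO. Cyp26b1 itself rose to a mean of 1.86 ± 0.350 CPM from 1.10 ± 0.0783 CPM in WT (SD of 3 libraries), with a log2 difference of 0.75 (95% interval 0.33 to 1.17, adjusted p 0.0083). Cyp26c1, which lies next to Cyp26a1 on chromosome 19, had 1 to 4 counts per library and was not tested.

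The Aldh1a sum (Aldh1a1, Aldh1a2 and Aldh1a3) was between 1.42 and 1.58 in WT and between 1.37 and 1.99 in SRF KO, so that the groups overlapped per length. That overlap depends on the scale. Merged exons span 2264 bases for Aldh1a2, which was not called, against 4937 for Aldh1a1 and 4617 for Aldh1a3, which rose. Added up as plain CPM, every SRF KO library lay above every WT library. The make-up of the sum per length also differed. Aldh1a2 held 82.2% to 84.7% in WT and 53.5% to 60.6% in SRF KO, and Aldh1a3 held 12.8% to 13.8% and 32.0% to 38.2%. Aldh1a3 rose to a mean of 2.67 ± 0.327 CPM from 0.930 ± 0.0365 CPM in WT (SD of 3 libraries), with a log2 difference of 1.53 (SE 0.17, adjusted p 3.12e-05).

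**Figure D4:**
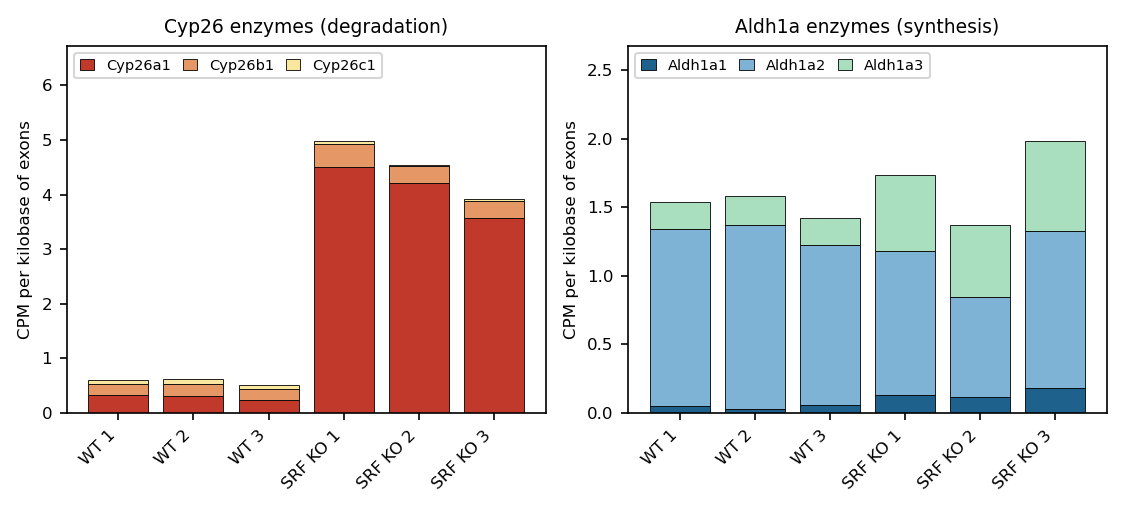
Stacked CPM per kilobase of exons of the Cyp26 enzymes (left) and Aldh1a enzymes (right) in each library, bars from 0. The Cyp26 bars reach 3.92 to 4.99 in SRF KO against at most 0.613 in WT, while the Aldh1a bars overlap in height and differ in make-up.

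The rest of the retinoid route was described with 7 lists typed from general knowledge, 64 names in all, of which 63 are in the table and 47 were tested. Of the 47, 16 were higher and 8 lower in SRF KO, 24 called in all, beside 41.1% of all entries. For each list below the shares to compare are the 20.4% higher and 20.7% lower of all entries. With so few genes, a count near those shares is not by itself a result about a list. Their median log2 fold change was 0.05 and that of all entries tested -0.02.

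Of 7 carrier and uptake genes tested, 2 were higher and 3 lower, beside 20.4% and 20.7% of all entries. Lrp2, or megalin, an endocytic receptor that also takes up retinol-binding protein, had 14541, 13074 and 13807 counts in SRF KO and 1220, 845 and 1013 in WT. It rose to a mean of 504 ± 32.7 CPM from 33.9 ± 1.25 CPM in WT (SD of 3 libraries), with a log2 difference of 3.89 (SE 0.06, adjusted p 4.31e-12). Ttr, the plasma partner of Rbp4, had 52, 35 and 51 counts in SRF KO and 0 in every library of WT. Against a floor of 3 counts per library this is at least 16.5-fold higher. Ttr reached the filter's level in none of the 3 WT libraries, so that it could be tested only because it was higher in SRF KO, and its call is no separate support. Lrp2 and Ttr are also genes of visceral endoderm. The falls were smaller, among them those of Fabp5, a fatty acid-binding protein that can also carry retinoic acid, and of Scarb1, each by 0.36 on the log2 scale.

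In the storage and carotene list 2 of 5 genes were tested, and Lipe, a lipase, was lower by log2 fold change (-0.44, adjusted p 0.0047). Lrat, which esterifies retinol for storage, was too low to test, with 3, 1 and 1 counts in SRF KO and 11, 11 and 9 in WT. That is a ratio of 0.178 with a 95% counting interval of 0.0539 to 0.461. Of 9 oxidation enzymes tested, Aldh1a3 and Rdh10 were higher and none lower, beside 20.4% and 20.7% of all entries. Rdh10, which turns retinol into retinal, rose to a mean of 8.57 ± 0.507 CPM from 5.50 ± 0.507 CPM in WT (SD of 3 libraries), with a log2 difference of 0.65 (adjusted p 0.000424).

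Receptors were tested in all 5 cases. Rarg rose to a mean of 215 ± 7.83 CPM from 139 ± 12.4 CPM in WT (SD of 3 libraries), with a log2 difference of 0.63 (adjusted p 1.43e-05), and Rxrg, with a mean of 2.56 ± 0.453 CPM in SRF KO, rose by a log2 difference of 1.38 (adjusted p 0.000236). Rara, Rxrb and Rxra changed by -0.02, -0.13 and 0.23 and did not pass (adjusted p 0.815, 0.198 and 0.0547). Per length, Rarg made up 68.0% to 69.4% of the retinoic acid receptors in WT and 77.2% to 78.3% in SRF KO, whereas Rarb was under 0.4% in every library. Of 10 coregulators, 3 were higher and 2 lower, all by small amounts, beside 20.4% and 20.7% of all entries. Nrip1, Crebbp and Ncoa3 were higher by 0.35, 0.28 and 0.22, and Ncoa1 and Ncoa2 fell by 0.18 and 0.14 on the log2 scale.

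The list of 15 known retinoic acid targets had 13 tested genes, 6 higher and 2 lower, with a median log2 fold change of 0.66, beside 20.4% higher and 20.7% lower among all entries. The homeobox genes Meis1, Hoxb4, Hoxa3, Hoxa4 and Meis2 were higher by 1.57, 1.31, 1.28, 1.02 and 0.70. Hoxa4 passed the filter on low counts through SRF KO, with 1 of 3 WT libraries at the filter's level. Hoxb1, with 6 to 12 counts per library, and Hoxd4 were too low to test. The 2 falls were those of Stra8, a gene of meiotic entry, from 11.9 ± 1.23 to 5.28 ± 0.441 CPM (SD, n = 3; log2 fold change -1.17, adjusted p 5.87e-06), and Bhlhe40, from 107 ± 1.30 to 52.3 ± 2.49 CPM (log2 fold change -1.03, adjusted p 4.67e-08). The fibroblast markers were higher by 0.81 to 1.46 on the log2 scale. Of the retinoid genes called higher, Stra6, Rxrg, Hoxb4, Hoxa3 and Hoxa4 lay within that range, and Aldh1a3, Meis1 and Aldh1a1 just above it. Cyp26b1, Meis2, Rdh10, Rarg and the coregulators called higher lay below it, and Cyp26a1 and Lrp2 were among those far above it. The part of fibroblast-like cells in these values was not tested.

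**Figure D5:**
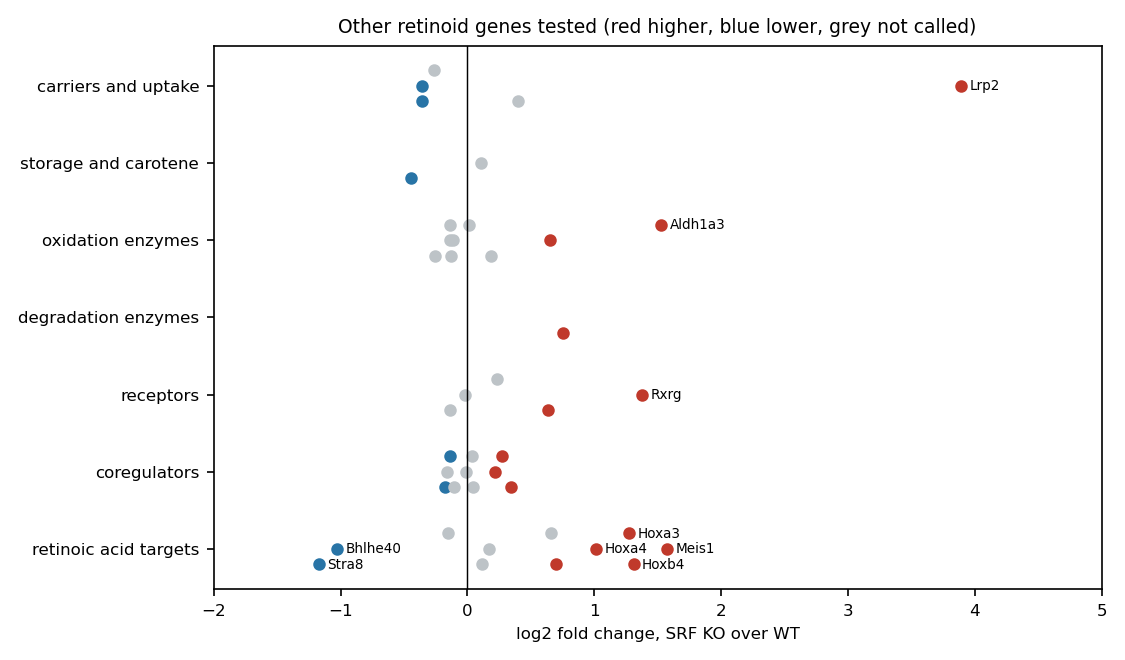
Log2 fold change of SRF KO over WT (x axis) of 43 of the 47 other retinoid genes tested, in rows by list, red higher, blue lower, grey not called, with names where the change is at least 1. Ttr is left out because its WT libraries are at 0, and 3 further genes are not shown. Of the genes shown, Lrp2 at 3.89 lies farthest right, and Stra8 at -1.17 farthest left.

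Genes with a similar pattern were looked up among genes with a mean of at least 50 counts, by the root mean square difference of log2 CPM (prior count 2) over the 6 libraries after subtracting each gene's WT mean. Among 12343 such genes, those closest to Cyp26a1 were Amot, Hs3st1 and Dgkk, at 0.087, 0.11 and 0.12. Their log2 fold changes were 3.69, 3.61 and 3.59. Closest to Stra6 were Runx2, Wisp2 and Sytl2 (0.050, 0.050 and 0.057), and to Aldh1a1 Cck, Gypc and Gpr176 (0.098, 0.10 and 0.12). For Aldh1a2 they were Klk8, Rspo1 and Kcnip2 (0.039, 0.069 and 0.080), for Rbp4 Tmub1, Cd79a and Ociad2 (0.056, 0.077 and 0.079), and for Dhrs3 among others Pigw and Dcaf10 (0.026 and 0.050). Crabp1 lay nearest to Pcyox1l, Smim4 and Pemt (0.068, 0.070 and 0.070) and Crabp2 to Nek8, Gemin8 and Pfkfb1 (0.041, 0.049 and 0.053). Rarb had no close match, with 0.29, 0.30 and 0.31 for Zfpm2, Pcdhga1 and Spns2. Rbp4, Stra6, Aldh1a1 and Rarb had means of 27.7, 26.7, 13.2 and 25.2 counts, under the level asked of their matches. A prior count shrinks log2 differences more at such low counts. The matches of Aldh1a1 had log2 fold changes of 1.27, 1.32 and 1.33, against its own 1.59. This measure is dominated by the difference between the groups and carries no test.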

How the data were processed

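Bulk RNA of 3 SRF KO and 3 WT libraries was compared. The authors deposited raw counts per gene and transposable element subfamily, whole numbers without normalization as judged from the values. Reads were paired, 150 bp and cleaned of adaptors and poor sequence, per the labels' protocols. The submitters' processing notes name mm10 and DESeq2 without a role. The aligner, counting program, annotation and use of strand are not given in the sources used here.

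One fit in edgeR 4.0.16 (R 4.3.3) covered every entry: filterByExpr (minimum count 10), TMM scaling, quasi-likelihood test, Benjamini-Hochberg adjustment, threshold 0.05, no replicate term. Levels are CPM on TMM-scaled library sizes. SE is the fold change divided by the root of the F statistic, and 95% intervals use its t quantile. Gene models come from GENCODE M21 and promoter windows from RefSeq, both GRCm38, the assembly called mm10. No library pair agreed within sampling noise (chi-square per degree of freedom 1.98 to 18.2), and each counted as 1 replicate. A count of 3 is 0.0828 to 0.117 CPM, and intervals cover counting and replicate error only.

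The members and lists were chosen with earlier results of these data known. Named genes are the members, list genes called with a log2 change of 1 or more either way, up to 3 others per list by p, abundant markers and the 3 nearest profiles, of which a few are not reported here, though counts and medians of the lists include them. Genes near a DR5 element, family sums and genes beside Cyp26a1 were added after values were seen. Alternatives were DESeq2 1.42.0, RLE or total-count scaling, no filter, gene entries alone, a replicate block, other thresholds and leaving out each library. Scripts were tested on simulated data.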

Additional observations from a re-analysis of the deposited data

How the results depend on the processing

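Cyp26a1, Stra6 and Aldh1a1 were called higher under all 12 alternative fits run for each, with an adjusted p of at most 0.0176. Of 108 comparisons of the 9 genes with an alternative, 105 kept direction and call, 2 reversed and 1 became stronger. Across fits leaving out 1 library, Dhrs3 ranged from -0.022 to 0.13, with -0.022 on omitting SRF KO library 3 and -0.011 on omitting WT library 3, and Rarb from 0.22 to 0.99 (called on omitting WT library 3), and why was not tested. A log2 change of 1 or more either way left 1087 entries called (822 higher, 265 lower), with 3 members and 11 other retinoid genes (9 higher, 2 lower). An adjusted p under 0.01 left 4276 entries called (2233 higher, 2043 lower), with 3 members and 22 other retinoid genes (16 higher, 6 lower). Such thresholds keep or lower counts by construction. With coding length, ranks became 8 for Stra6, 2 for Crabp2, 3 for Cyp26a1 and 7 for Rarb in SRF KO, and 4 for Aldh1a2, 7 for Cyp26a1, 6 for Rarb and 3 for Dhrs3 in WT. Replicate numbers were not used to pair the libraries in the main fit. Deviations from the group mean correlated between libraries of the same number by 0.057, 0.38 and 0.24 for replicates 1 to 3, over 12920 entries. With a replicate block 7712 entries were called, against 6414 in the main fit, and what replicates of the same number share was not tested. With a replicate block the same number of members, 3, and 29 other retinoid genes were called, and Cyp26a1 was at 3.796. Depth limits Aldh1a1, with 4 to 9 counts in WT.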

Other observations

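Around Cyp26a1 on chromosome 19, the neighbouring protein-coding genes, looked up after the values of Cyp26a1 were seen, changed by less. Upstream, Hhex, a homeobox gene of endoderm, had a log2 fold change of 0.71 (edgeR adjusted p 4.12e-05) and Exoc6 one of 0.29 (0.0167). Downstream, Myof was at 1.08 (4.08e-07) and Cep55 at -0.36 (0.00102). Cyp26c1 and Ffar4 had too few counts to test.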
